A study of Rattus norvegicus with 6 samples.

Results

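The matrix metalloproteinases and their inhibitors described here are 10 genes, 7 of the Mmp family and 3 of the Timp family, measured in the livers of 6 male rats. They were matched by symbol to 12 probes, through the RefSeq accession given for each probe, out of 15645 symbols and 61537 probes on a 1-colour Agilent array. The rats were Sprague-Dawley (Crl:CD(SD)), an outbred stock, 5 weeks old when purchased. Corn oil was given to 3 control animals. The other 3 were dosed with carbon tetrachloride (CCl4), 100 mg/kg/day, and each liver gave 1 array. CCl4 is a solvent that hepatocytes convert to reactive products, and repeated doses are a standard way to injure and scar the rodent liver. Exposure was given as 9 weeks in the treatment protocol but as 28 days in the series design, and the files do not settle which holds. No histology, protein or enzyme activity was analysed here, so all values are RNA levels of whole liver, in which more cells of a type and more RNA per cell cannot be told apart.

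Metalloproteinases are zinc enzymes that cut collagen, elastin and other matrix proteins outside the cell. They are made as inactive precursors, are switched on by other proteases, and are blocked by the TIMP proteins, which bind the active site. In a scarring liver, stellate cells make much of the collagen as well as MMP2 and TIMP1, macrophages make MMP12 and other matrix-cutting enzymes, and the balance between enzymes and inhibitors is known to bear on whether scar is laid down or removed.

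Several of these genes lie side by side. In the GRCr8 assembly, 10 Mmp genes follow each other on chromosome 8, with only 2 pseudogenes between them, and Mmp13, Mmp12, Mmp8 and Mmp7 are among them. The 300-base window around a gene's start (250 bases before and 50 after) held the AP-1 letters TGACTCA or TGAGTCA, which are each other's complement, in 6 of these 10 genes. Of all 33469 windows of this length, 4.63% did. AP-1, made of Fos and Jun proteins, is a well known regulator of metalloproteinase genes. Windows were found for 7 of the 10 genes described here, and 3 of them, Mmp12, Mmp7 and Mmp13, held the letters. The first base of the match lay 87, 80 and 66 bases before the start, respectively. These 3 stretches are shown because the same letters precede a gene that rose, a gene that missed the threshold and a gene not well above background in any of these livers, with the match in capitals (RefSeq, GRCr8):
Mmp12: acatcaacagTGAGTCAtattgaggat
Mmp7: agcatgagaaTGAGTCAccgattccca
Mmp13: ccccaagtggTGACTCAtcactattgc

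The whole window of Mmp12, the gene that rose, was read from GRCr8 chr8:12866402-12866701 on the plus strand, again with the AP-1 letters in capitals.
Mmp12: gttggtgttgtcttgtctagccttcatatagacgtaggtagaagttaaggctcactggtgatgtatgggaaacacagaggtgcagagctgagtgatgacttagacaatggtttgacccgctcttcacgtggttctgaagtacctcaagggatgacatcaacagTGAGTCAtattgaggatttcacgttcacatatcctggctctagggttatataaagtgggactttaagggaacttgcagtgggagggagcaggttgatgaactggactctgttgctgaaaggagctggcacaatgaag

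Levels are given as log2 of the processed signal minus log2 of the array's 75th percentile, so that 0 is the 75th percentile of all probes and each unit is a 2-fold step. Levels of different probes are not comparable, because probes bind with different strength. Between 65.0% and 67.3% of probes were well above background on the corn oil arrays, and between 61.9% and 64.7% on the CCl4 arrays. The 75th percentile was 582.6 to 675.6 signal units. The lowest level called well above background was -5.66, -5.58 and -5.38 in corn oil replicates 1, 2 and 3. It was higher in the CCl4 replicates, at -4.98, -5.28 and -5.34. The bearing of this shift on probes near background was not tested. All 3 controls shared a slide with CCl4 replicate 1, while CCl4 replicates 2 and 3 were on another, so the groups and the slides cannot be fully told apart. Of the 10 genes, 7 were tested, since 3 or more of their 6 spots were well above background. Mmp8, Mmp9 and Mmp13 did not reach this.

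Mmp12, the macrophage metalloelastase that cuts elastin, had the largest measured change of the 7 tested genes. The corn oil livers were at -7.87, -5.68 and -7.44, and the probe was not well above background on any of these arrays. The CCl4 livers were at -0.67, 0.08 and -0.52, well above background on all 3. The groups were far from overlapping, and the lowest CCl4 liver lay above the highest corn oil liver by more than the whole range of either group. Because the corn oil values are background, only a bound can be given: by the rule described under processing, Mmp12 rose at least 36.1-fold. The limma test (adjusted p = 0.0171, n = 3 arrays per group) was made on the values as measured, a log2 change of 6.63, and not on the bound. This bound was the highest of the 22 tested genes (0.184% of those tested) that were well above background on every CCl4 array and on 0 corn oil arrays. The group means as measured were -7.00 ± 1.16 and -0.37 ± 0.40 (SD). Mmp12 was the only one of the 7 tested genes past the threshold, where 0.637% of the 11939 genes tested passed (0.561% higher and 0.0754% lower). On the probe level it was 1 member probe past the threshold, where 0.341% of all probes tested passed in either direction and 0.287% of all probes tested passed as higher. It entered the test through the CCl4 arrays alone.

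The Mmp12 call was lost in 3 of the 6 fits that left out 1 array, while its direction was the same in all 6. Without corn oil replicate 3 the adjusted p was 0.0792, without CCl4 replicate 1 it was 0.0773 and without CCl4 replicate 2 it was 0.108, and over all 6 such fits the bound was 30.9-fold to 40.1-fold. Within the first slide the bound was 29.3-fold, and the call did not pass there (adjusted p = 0.192) or with slide as a block (adjusted p = 0.183). Correcting the background with the normexp model, whose offset of 50 compresses differences near background, gave a fitted log2 change of 2.86 ± 0.14 (SE; adjusted p = 0.000982), which is no bound.

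**Figure D1:**
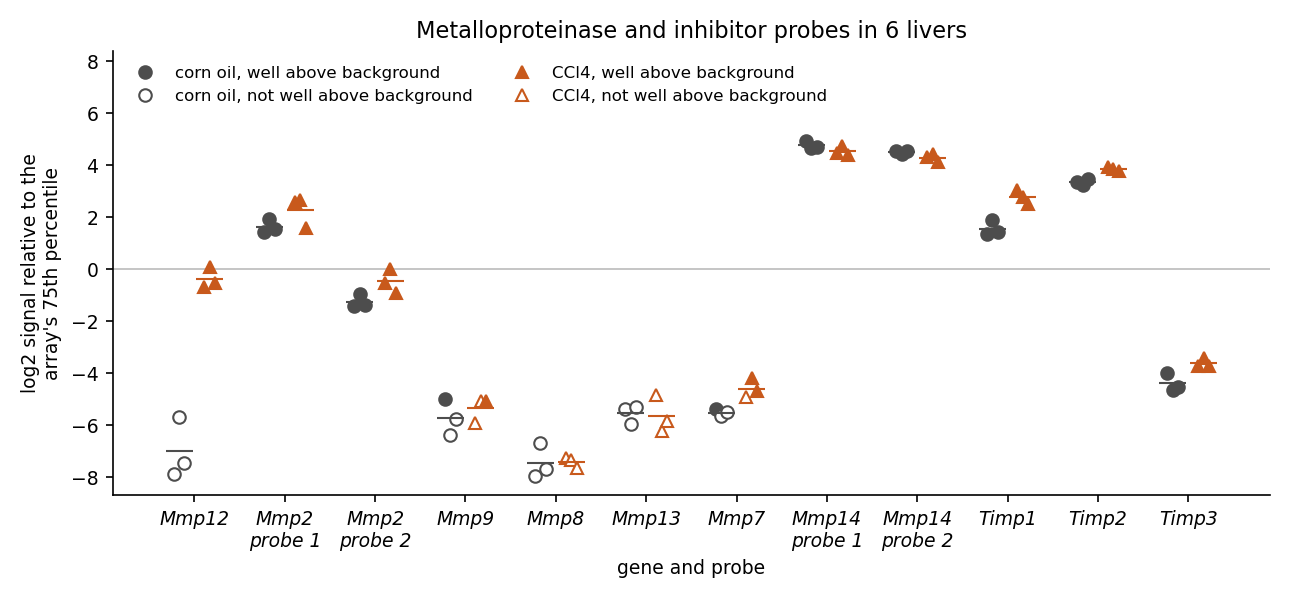
Level of each probe (y axis, log2 signal relative to the array's 75th percentile) in the 3 corn oil livers (circles) and the 3 CCl4 livers (triangles), with open symbols where the spot was not well above background and a bar at each group mean; for genes with 2 probes, probe 1 is the brighter. Mmp12 moves from open symbols between -7.87 and -5.68 to filled symbols between -0.67 and 0.08, while Mmp8 and Mmp13 have open symbols in all 6 livers.

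No other tested Mmp gene of the chromosome 8 group passed the threshold. The rat array carried matched probes for 9 of these 10 genes, of which 6 were not tested and 1, Mmp12, passed. Mmp8, the neutrophil collagenase, was at -7.95, -6.69 and -7.68 in corn oil and at -7.28, -7.33 and -7.64 in CCl4. No array was well above background, so the values are background and have no order. Mmp13, the main interstitial collagenase of rodents, was at -5.37, -5.95 and -5.30 in corn oil and -4.86, -6.22 and -5.83 in CCl4, again not well above background on any array. The stromelysins Mmp3 and Mmp10, which cut many matrix proteins and activate other metalloproteinases, were also not well above background on any array. Mmp1 was at -0.35 ± 0.39 (log2 change and SE; adjusted p = 0.633).

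Mmp7, matrilysin, a small metalloproteinase of epithelial cells, lay close to the background. Corn oil livers were at -5.37, -5.66 and -5.51, and CCl4 livers at -4.90, -4.19 and -4.70. The groups did not overlap, but only 1 corn oil array and 2 CCl4 arrays were well above background, and CCl4 replicate 1 was not. The log2 change was 0.92 ± 0.20 and did not pass (limma, adjusted p = 0.0908). It was 0.14 ± 0.09 under normexp (adjusted p = 0.425). The offset added in normexp compresses differences near background, where Mmp7 lay. A smaller value would therefore follow with or without a true difference, and this setting cannot decide whether Mmp7 differed.

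Mmp2, gelatinase A, which stellate cells and fibroblasts secrete to degrade basement membrane and denatured collagen, had 2 probes. On the brighter probe, corn oil livers were at 1.42, 1.91 and 1.53, and CCl4 livers at 2.59, 2.67 and 1.57. CCl4 replicates 1 and 2 lay above all controls, whereas CCl4 replicate 3 lay among them, so the groups overlapped. The change was 0.66 ± 0.32 (adjusted p = 0.306). On the dimmer probe, corn oil livers were at -1.41, -0.95 and -1.39 and CCl4 livers at -0.52, 0.01 and -0.90, with CCl4 replicate 3 again the lowest of its group. Here the groups did not overlap, by a narrow gap (9.69% of probes lay wholly higher in CCl4), and the change was 0.78 ± 0.26 (adjusted p = 0.236 over all 40478 probes tested). Without CCl4 replicate 3 the change was 1.01 on the brighter probe and 1.00 on the dimmer.

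Mmp9, gelatinase B, an enzyme of neutrophils and activated macrophages, was near background in both groups. The corn oil livers were at -5.00, -6.38 and -5.75 and the CCl4 livers at -5.91, -5.06 and -5.09, with 1 array of each group well above background. The groups overlapped, and the gene was not tested.

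Mmp14, a membrane-bound metalloproteinase that activates the MMP2 precursor at the cell surface, was bright in all livers and had 2 probes. On the brighter probe, corn oil livers were at 4.91, 4.67 and 4.71 and CCl4 livers at 4.48, 4.72 and 4.40. On the other they were at 4.54, 4.41 and 4.54 against 4.30, 4.44 and 4.13. On both probes the groups overlapped through CCl4 replicate 2. The changes were -0.23 ± 0.13 (adjusted p = 0.365) and -0.21 ± 0.13 (adjusted p = 0.458 over probes). Mmp14 was the only tested member with a negative change, and it did not pass.

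Timp1, an inhibitor that blocks most secreted metalloproteinases and marks scarring liver, was higher in each CCl4 liver than in any control. Corn oil livers were at 1.34, 1.90 and 1.44, and CCl4 livers at 3.06, 2.77 and 2.50. The groups did not overlap, with CCl4 replicate 1 the highest and CCl4 replicate 3 the lowest of the treated animals. The change was 1.22 ± 0.21, or 2.32-fold, and missed the threshold (limma, adjusted p = 0.0648). It passed under normexp (1.30 ± 0.16, adjusted p = 0.0261). The adjusted p was 0.0499 when genes with any dim array were dropped, and 0.0429 when the variance was fitted as a trend. Over all alternatives the adjusted p was 0.0261 to 0.222.

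Timp2, which blocks metalloproteinases but also joins MMP14 in the activation of MMP2, was bright in all 6 livers and varied little within groups. Corn oil livers were at 3.35, 3.25 and 3.47, and CCl4 livers at 3.93, 3.85 and 3.79. The groups did not overlap. The change was 0.50 ± 0.11, or 1.41-fold (adjusted p = 0.0868), and was nearly the same under normexp (0.51 ± 0.10, adjusted p = 0.0553).

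Timp3, the inhibitor that stays bound to matrix and also blocks ADAM17, was well above background on all 6 arrays. Corn oil livers were at -3.98, -4.63 and -4.55, and CCl4 livers at -3.74, -3.43 and -3.71. The groups did not overlap, although corn oil replicate 1 came close to the CCl4 livers. The change was 0.76 ± 0.20, or 1.69-fold (adjusted p = 0.125). Under normexp it was 0.32 ± 0.10 (adjusted p = 0.154). All 3 inhibitors thus had positive changes without overlap between groups, as 11.5% of all genes tested did, and none passed the threshold over all genes.

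**Figure D2:**
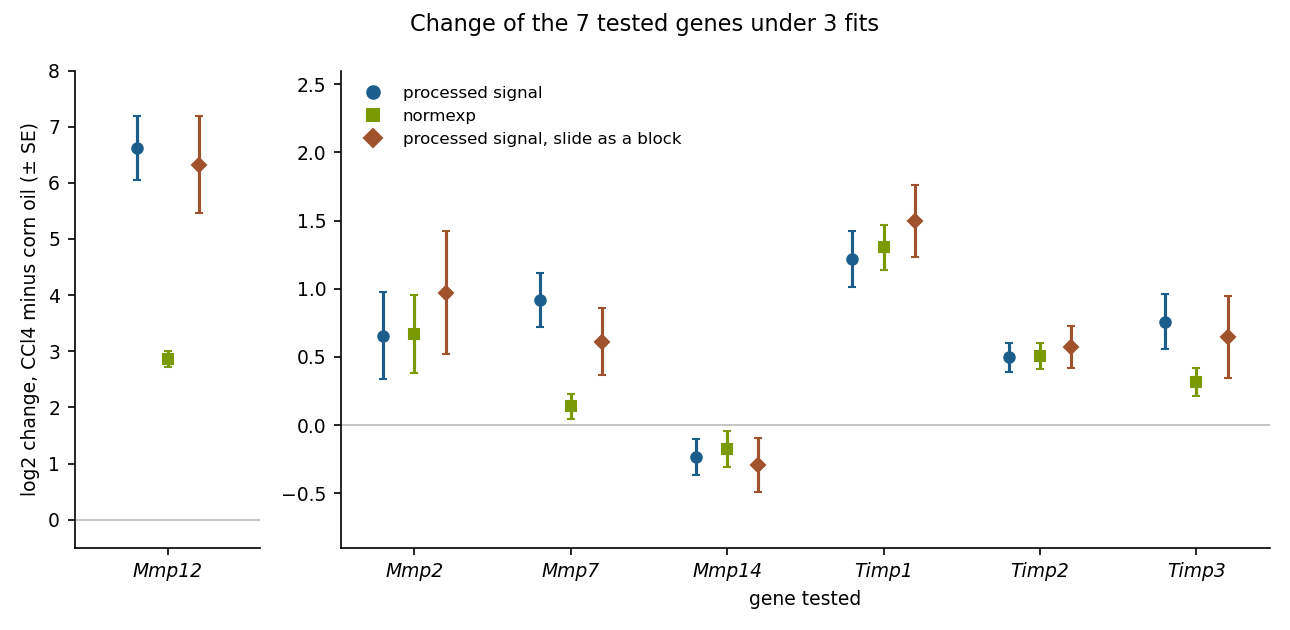
Log2 change (CCl4 minus corn oil, y axis, with the standard error of the limma fit) of the 7 tested genes with the processed signal, with normexp background correction and with slide as a block; Mmp12 has its own axis, and its change is measured against background values in corn oil. Timp1 and Timp2 differ little between normexp and the processed signal, whereas Mmp12, Mmp7 and Timp3, whose signals were nearest background in 1 or both groups, are smaller under normexp.

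Across the tested genes, 5 of 7 had a brightest probe with all CCl4 livers above all controls (Mmp12, Mmp7, Timp1, Timp2 and Timp3), where 11.5% of all genes did and 27.4% did in either direction. Mmp12 could be tested only through its CCl4 arrays, and the genes were chosen with earlier results known, so this count is a description. No tested gene lay wholly lower, as 15.9% of genes did. The slides move with the groups, and the part of the slide in these differences was not fully separable. With slide as a block, which sets CCl4 replicate 1 against the controls of the same slide, the changes were 1.50 ± 0.27 for Timp1 (adjusted p = 0.195), 0.57 ± 0.15 for Timp2 (adjusted p = 0.274) and 0.64 ± 0.30 for Timp3 (adjusted p = 0.454). They were 0.97 ± 0.45 for Mmp2 (adjusted p = 0.452), 0.61 ± 0.25 for Mmp7 (adjusted p = 0.393) and -0.29 ± 0.20 for Mmp14 (adjusted p = 0.569). All 7 genes kept their sign, and none passed.

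The CCl4 animals differed among themselves more for some genes than for others. Relative to the corn oil mean, Timp1 stood at 1.50, 1.21 and 0.94 in CCl4 replicates 1, 2 and 3, and Timp2 at 0.57, 0.50 and 0.43. Mmp2 stood at 0.97, 1.05 and -0.05 on its brighter probe. Markers of stellate cells and myofibroblasts, as a list, had medians of 0.20, 0.41 and -0.10 in the same animals, and matrix substrate genes had 0.52, 0.28 and -0.01. CCl4 replicate 3 was thus the lowest of the 3 for Mmp2 and for both lists. Whether the stellate cell content of the samples bears on the Mmp2 values was not tested.

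**Figure D3:**
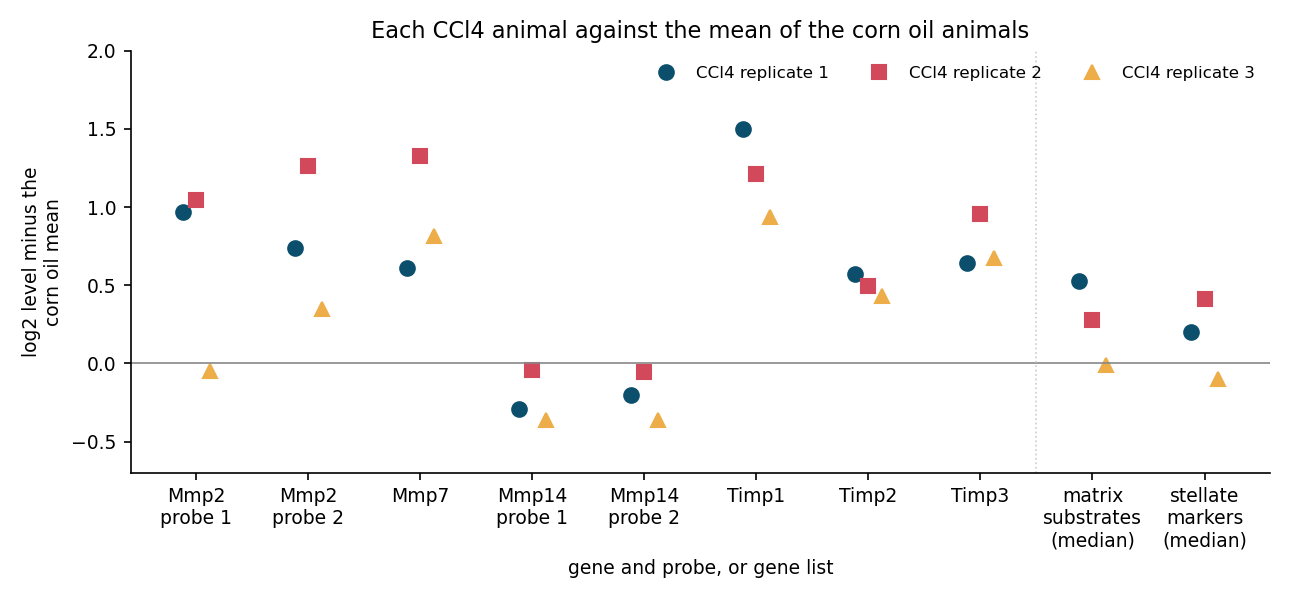
Level of each tested probe other than Mmp12 in each CCl4 animal, as the log2 difference from the mean of the 3 corn oil animals (y axis), with the medians of the matrix substrate and stellate marker lists on the right. All 3 animals lie above 0 for Mmp7, Timp1, Timp2, Timp3 and the dimmer Mmp2 probe, while CCl4 replicate 3 is at -0.05 for the brighter Mmp2 probe and at -0.01 and -0.10 for the lists.

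Other metalloproteinases and inhibitors were read in the same way. Of 17 further family genes, 9 were tested and 0 passed (limma, 3 at an unadjusted p below 0.05). Over all genes tested, 2354 of 11939 were at an unadjusted p below 0.05, a share to set beside this count and those below. Calls among these family genes, in the higher direction, appeared in 9 alternative settings and did not in 10. Mmp24, a membrane-type enzyme best known from the nervous system, was at -1.95, -2.38 and -2.66 in corn oil and -0.27, 0.28 and -0.80 in CCl4. These groups did not overlap, and its change of 2.07 ± 0.31 came close to the threshold (adjusted p = 0.0558) and passed under normexp (1.48, adjusted p = 0.0441). Mmp23 was at 0.99 ± 0.23 (adjusted p = 0.1001) and Mmp17 at -0.54 ± 0.13 (adjusted p = 0.105), each without overlap. Mmp19 was at 0.33 ± 0.17 (adjusted p = 0.316), Mmp16 at -0.10 ± 0.11, and Mmp15, bright in all livers, at -0.02 ± 0.12. Timp4, the fourth inhibitor of the family, was near background, at -0.20 ± 0.43 (adjusted p = 0.823). Reck, a membrane inhibitor, was not analysed here. Of the related ADAM and ADAMTS proteases, 10 were tested and 0 passed (2 at an unadjusted p below 0.05). Among these, the proteoglycan-cutting enzyme gene Adamts9 was at 0.84 ± 0.16 (adjusted p = 0.0725) and passed under normexp (0.76, adjusted p = 0.0478). Adam17, the shedding enzyme that TIMP3 blocks, was at -0.03 ± 0.12. Adam19 was at 0.36 ± 0.11 on its brightest probe, and its 4 tested probes ranged from -0.30 to 0.36.

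Genes that switch metalloproteinases on or hold them back formed the next layer of the pathway. Of 16 tested, 0 passed (limma, 7 at an unadjusted p below 0.05). Plat, a plasminogen activator, was at 0.79 ± 0.27 (adjusted p = 0.198), Plau at 0.46 ± 0.29 (adjusted p = 0.424) and the receptor gene Plaur at 0.48 ± 0.13 (adjusted p = 0.129). On the other side, plasminogen itself (Plg) was at -0.38 ± 0.15 (adjusted p = 0.243), the plasmin inhibitor Serpinf2 at -0.53 ± 0.16 (adjusted p = 0.160) and Furin, a convertase that activates MMP14, at -0.30 ± 0.10 (adjusted p = 0.194). Each of these 3 genes was lower in every CCl4 liver than in any control, as 15.9% of all genes were. Another 3 of the 16 lay wholly higher, Plat and Plaur among them, where 11.5% of all genes did. A2m, a broad protease trap of plasma, was at -1.73 ± 0.71 with overlapping groups (adjusted p = 0.250), and the inducer Bsg at 0.10 ± 0.11. Lcn2, whose product binds MMP9, was at -3.10, 2.40 and 1.99 in the CCl4 livers, with the first below all controls (change 1.89 ± 1.43, adjusted p = 0.494).

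Of the matrix proteins that these enzymes cut, 16 were tested and 0 passed (limma, 5 at an unadjusted p below 0.05). Calls among them, in the higher direction, appeared in 5 alternative settings and did not in 14. The median change was 0.21 against -0.05 for all genes tested. Leaving out 1 array moved this median between 0.14 (without CCl4 replicate 2) and 0.41 (without CCl4 replicate 3), and with slide as a block it was 0.52. Col1a2 and Col3a1, chains of the fibrillar collagens of scar, were at 0.99 ± 0.18 (adjusted p = 0.0725) and 0.73 ± 0.20 (adjusted p = 0.127), without overlap. Col1a1 was at 0.16 ± 0.26 on its brightest probe, and its 3 tested probes ranged from 0.16 to 1.60. Fbn1, a microfibril gene, was at 1.23 ± 0.21 (adjusted p = 0.0666, and 0.36 on its other probe). Col15a1 was at 1.11 ± 0.19 (adjusted p = 0.0648), and at 2.46 on its other probe (adjusted p = 0.0771 over probes). Under normexp, Col1a2 (0.95, adjusted p = 0.0474) and Fbn1 (1.25, adjusted p = 0.0409) passed. Col3a1 (0.72, adjusted p = 0.0965) and Col15a1 (0.44, adjusted p = 0.101) did not. Eln, the main substrate of MMP12, was at -0.09 ± 0.33 (adjusted p = 0.896) and its corn oil and CCl4 values overlapped. The basement membrane gene Col4a1 was at -0.31 ± 0.18, with its 4 probes from -0.31 to 0.51, and Fn1 was at -0.23 ± 0.16. Spp1, which encodes osteopontin, a substrate of several metalloproteinases, was at -1.02, -2.19 and 1.57 in the CCl4 livers, so only CCl4 replicates 1 and 3 lay above the controls (1.46 ± 0.90, adjusted p = 0.403).

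Cytokines and transcription factors known to drive metalloproteinase genes were tested beside them. Of 22 tested, 0 passed (3 at an unadjusted p below 0.05), and the median change was 0.02. Fos, at 0.32 ± 0.17 (adjusted p = 0.333), and Jun, at 0.35 ± 0.45 (adjusted p = 0.688), are the AP-1 subunits whose letters precede Mmp12, Mmp7 and Mmp13. Tnf was at 0.54 ± 0.21 (adjusted p = 0.233), Il1b at -0.09 ± 0.15 and Tgfb1 at 0.20 ± 0.17. Runx1, a transcription factor of blood and stromal cells, was at 0.86 ± 0.16 (adjusted p = 0.0708; normexp 0.73, adjusted p = 0.0434).

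**Figure D4:**
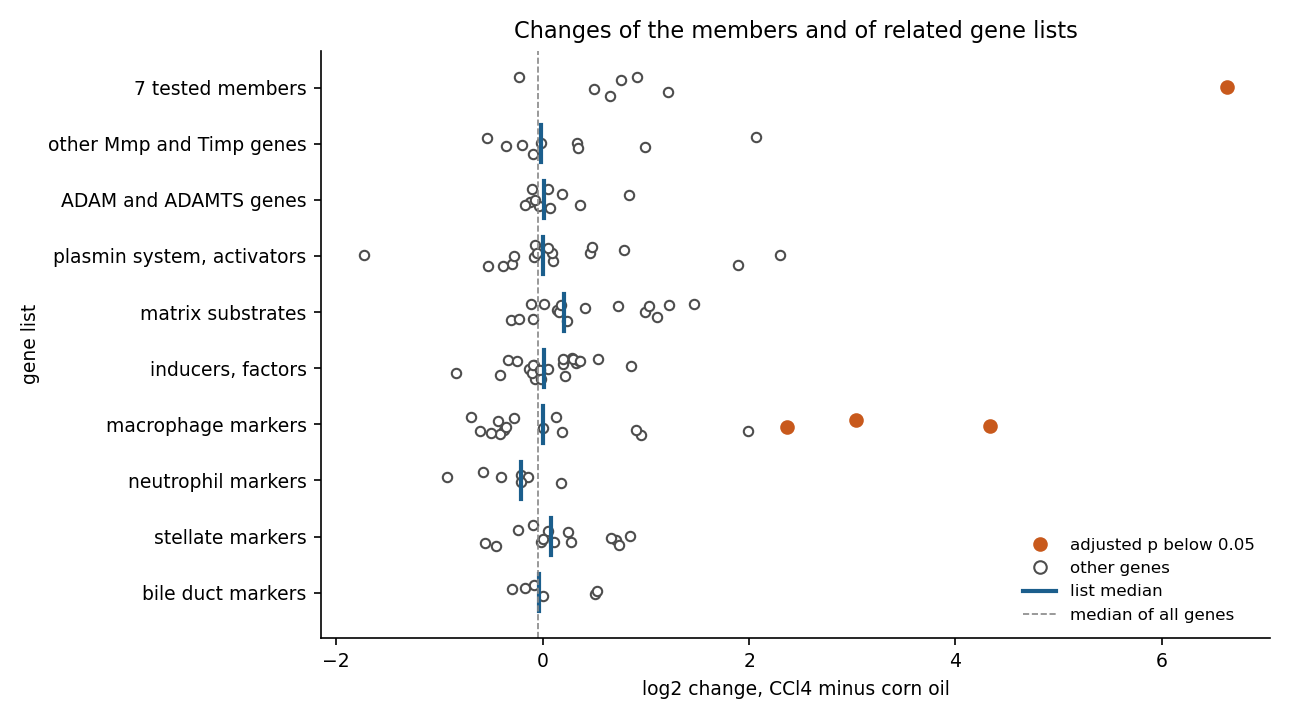
Log2 change (x axis, CCl4 minus corn oil) of each tested gene in the member set and in 9 related lists, filled where the adjusted p was below 0.05, with the median of each related list as a bar and the median of all genes as a dashed line at -0.05. Mmp12 at 6.63, measured against background values, lies apart from the other members and from all listed genes, and the macrophage markers hold 3 filled points while their median is 0.01.

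Markers of the cells that make these enzymes were read beside them. Of 17 macrophage markers tested, 9 were at an unadjusted p below 0.05 (limma), where 2354 of all 11939 genes were. Past the threshold 3 rose, where 0.561% of genes did, namely Trem2 (4.33 ± 0.32, adjusted p = 0.0106), Gpnmb (3.04 ± 0.42, adjusted p = 0.0462) and Lgals3 (2.36 ± 0.15, adjusted p = 0.00729). Without CCl4 replicate 1, without CCl4 replicate 2, or with slide as a block, 0 of the 3 calls were left, and without corn oil replicate 3 there was 1. In all, 6 of the 17 lay wholly higher in CCl4, where 11.5% of all genes did, and 1 lay wholly lower, where 15.9% did. Among the 6 were Itgam (1.99 ± 0.35, adjusted p = 0.0665), Lyz2 (0.96 ± 0.15, adjusted p = 0.0564) and Marco (0.91 ± 0.24, adjusted p = 0.129), which did not pass. Of these, Lyz2 passed under normexp (0.90, adjusted p = 0.0429). The general macrophage marker Cd68 was at 0.13 ± 0.13 (adjusted p = 0.628), and C1qc, of resident cells, at -0.60 ± 0.15 (adjusted p = 0.110). The list's summed signal, in multiples of the 75th percentile, was 208 to 238 in corn oil and 225 to 256 in CCl4, so the groups overlapped. Without Clec4f, the resident cell gene with the largest share of that sum (22.4% to 32.7%), it was 143 to 164 in corn oil and 174 to 190 in CCl4, without overlap. This step was added after seeing the data. The reduced sum includes Lgals3 and Lyz2, already given as higher, so it is no separate result. Of the 17 changes, 9 were positive and 8 negative, so some macrophage genes moved with Mmp12 and others did not. The part of macrophage genes in the rise of Mmp12 was not tested. Neutrophils are the usual source of Mmp8 and Mmp9. Of 12 of their markers 7 were tested and 0 passed (limma, 0 at an unadjusted p below 0.05), with a median of -0.21 and a summed signal of 3.13 to 6.39 in corn oil and 1.90 to 4.68 in CCl4. Of these markers, Elane, Ltf, Cxcr1 and Cxcr2 were not well above background on any array. By contrast, the brightest probes of S100a8, S100a9, Camp, Csf3r, Fpr1 and Prtn3 were well above background on all 6 arrays.

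Stellate and bile duct markers did not pass either. All 14 stellate cell and myofibroblast markers were tested and 0 passed (limma, 5 at an unadjusted p below 0.05), with a median of 0.08 and a summed signal of 47.0 to 52.1 in corn oil and 38.9 to 46.6 in CCl4, lower in each CCl4 liver. Ecm1, at -0.56 ± 0.11 (adjusted p = 0.0756, and -0.54 under normexp with adjusted p = 0.0492), held 40.9% to 61.7% of that sum. Without it, a step also added after seeing the data, the sum was 18.4 to 20.4 in corn oil and 24.4, 27.5 and 19.2 in CCl4. There CCl4 replicates 1 and 2 lay above the controls. In the whole list, 9 of the 14 changes were positive. Within the list, Des was at 0.85 ± 0.23 (adjusted p = 0.129) and Cygb at 0.71 ± 0.20, whereas Acta2, the smooth muscle actin of myofibroblasts, was at -0.24 ± 0.16 (adjusted p = 0.439). Of the bile duct markers, a known site of Mmp7, 6 were tested and 0 passed (1 at an unadjusted p below 0.05), with Epcam at 0.52 ± 0.14 (adjusted p = 0.127), Krt19 at -0.17 ± 0.16 and Krt7 at 0.01 ± 0.22. Their summed signal was 2.41 to 2.98 in corn oil and 2.66 to 2.86 in CCl4. Hepatocyte markers, 12 tested, did not pass (limma, 0 called, 2 at an unadjusted p below 0.05), but 11 of the 12 changes were negative, with a median of -0.24. Of the 12, 4 lay wholly lower in CCl4, where 15.9% of all genes did. The summed signal of the hepatocyte list was 6182 to 6528 in corn oil and 5074 to 5723 in CCl4, without overlap, and its part in the members' values was not tested. The other cell types are represented by sinusoidal endothelial markers (7 tested, 0 passed, 1 at an unadjusted p below 0.05) and lymphocyte markers (9 tested), of which Gzma fell by 1.32 ± 0.14 (adjusted p = 0.0252), a call that held only without CCl4 replicate 3 when 1 array was left out.

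The genes most like Mmp12 and Timp1 across the 6 livers were found by the root mean square difference between profiles, each centred on its own mean. Nearest to Mmp12 was Tnn, a matrix glycoprotein of the tenascin family, at a difference of 0.68 on the log2 scale. It was followed at 1.37 to 1.46 by Gpx2, a glutathione peroxidase, the fatty acid carrier Fabp4, Trem2 and the cytokine subunit Il23a. Because the Mmp12 values in corn oil are background, these distances and their order rest in part on background values, and for Tnn, which was not well above background in corn oil either, on both sides. Distances are in log2 units and are not scaled to the size of the change. Mmp12 had the largest change of all genes tested (6.63, against background values), so distances from Mmp12 and from Timp1 are not comparable. The genes nearest to Timp1 were Tmem79 (0.0999), the lectin Lgals1 (0.103), the calcium-binding protein gene S100a6 (0.105), Slc4a3 (0.113) and the chromatin assembly gene Chaf1b (0.118). None of these 5 passed the threshold (adjusted p = 0.0591 to 0.101), and their changes were 1.03 to 1.30, around that of Timp1. All 6 profiles placed every CCl4 liver above every control. These 5 genes were chosen for likeness to Timp1, so their changes and this order follow largely from the choice and are no separate result.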

How the data were processed

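Liver RNA (0.2 µg) was labelled with Cy3 and hybridised to 1-colour arrays, per the labels' protocols. Spot intensity was extracted by the authors with Agilent Feature Extraction (10.7 per the submitters' processing notes; the file headers give 10.7.1.1), background-subtracted and not scaled between arrays, and flags came with it, per the file headers. In the authors' value table each entry is a linear ratio of that signal to a divisor of 583.3 to 676.5 per array (column medians 0.103 to 0.110), inferred from the values, since the labels do not describe it.

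Groups came from the treatment label and replicate numbers from the titles. Same-numbered animals' deviations from their group means correlated at -0.05, 0.16 and 0.02 across genes, so the numbers were not taken as pairs. Of 61537 probes, 28206 matched 1 symbol in the GRCr8 gene table. The array design names the rn4 build, so no probe or gene coordinates of the array are given. Gene order and the promoter window come from the GRCr8 tables. Control spots and 26 outlier-flagged probes were left out. No probe described here was saturated or flagged. Signals were log2-transformed minus the 75th percentile. Genes were represented by their brightest probe well above background on at least 3 of 6 arrays and compared with limma 3.58.1 in R 4.3.3 (two-sided, Benjamini-Hochberg over 11939 genes, threshold 0.05). A second fit covered 40478 probes. The fit was tested on simulated data. The SE is that of the limma fit. With 3 against 3 animals an exact permutation test cannot go below 0.10, so none was used. Having 3 arrays a group limits precision. For a gene dim throughout a group, the bound sets the bright group's mean against the mean, per array, of whichever is higher, its own signal or the lowest signal called well above background. Some spots not called lay above that lowest signal, so the bound is not strict. In corn oil replicate 1, Mmp13 was such a spot, at -5.37 against -5.66.

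The members, the gene lists and the naming rule were chosen with earlier results of these data known. The rule names all 10 members, fixed genes of the pathway, list members past the threshold, up to 3 of the largest changes per direction and list, and 5 genes nearest to Mmp12 and to Timp1. Where a gene has several probes, values are those of the brightest unless stated. The normexp alternative used median spot signals with an offset of 50. Summed signals of marker lists without the gene with the largest share, and the Mmp12 bound within the first slide, were added after seeing the data. Python 3.11.15, numpy 2.4.6, pandas 2.3.3 and matplotlib 3.10.9 were also used. The values of 1 listed gene are not reported here.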

Additional observations from a re-analysis of the deposited data

How the results depend on the processing

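Of 131 alternative values for the 7 tested genes, 123 kept direction and side of the threshold, 5 (all of Mmp12) lost the call, 3 (all of Timp1) gained it, and 0 changed direction. Against 76 genes past the threshold, there were 217 under normexp, 139 with the filter on all 6 arrays (which removes Mmp12), 156 with a variance trend, 128 with array weights, 4 with slide as a fixed block, 10 with the replicate block and 0 within the first slide (1598 at an unadjusted p below 0.05), and 2 to 241 on leaving out 1 array, the last without CCl4 replicate 3. Of the genes described, 2 passed under normexp and with the variance trend, 0 with slide as a block or within the first slide, and 0 to 1 on leaving out 1 array. Over probes, 138 passed, against 62 without a filter, 13 with slide as a block, 0 with the replicate block (6614 at an unadjusted p below 0.05) and 2 to 256 on leaving out 1 array. Of the member probes 1 passed, against 2 under normexp, 0 with slide as a block, 0 with the replicate block and 0 to 1 on leaving out 1 array. The Mmp12 gene call held with the replicate block (adjusted p = 0.0492), and its probe call did not (adjusted p = 0.113); the numbers are not shown to pair the animals. The cause of these shifts was not tested. Changes of probes near background, as for Mmp7, are limited by signal over background.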

Other observations

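Mmp3, a stromelysin gene of the chromosome 8 group, was at -7.73, -7.65 and -7.48 in corn oil and at -6.00, -6.37 and -5.85 in CCl4. The groups did not overlap, but no array was well above background, so no fold can be given. Other probes not well above background on any array, those of Ltf and Mmp27, also lay wholly higher in CCl4. Those of Il6 and Mmp10 overlapped. The order of the Mmp3 values is therefore not read as a difference. Vcan, a matrix proteoglycan that metalloproteinases cut, had 3 probes, none of which reached the filter. On 1 of them 2 CCl4 arrays and 0 corn oil arrays were well above background, with CCl4 livers at -4.70, -5.27 and -4.28 and corn oil livers at -6.92, -6.94 and -6.30. Lum, another matrix proteoglycan, was well above background in CCl4 replicate 1 alone, at -2.93, against -6.55 and -7.23 in CCl4 replicates 2 and 3.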
